A study of Homo sapiens with 4 samples.

Results

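Interferon-stimulated genes, a set of 34 antiviral and signalling genes taken by symbol from a list, were followed across the 4 libraries of the series, and all 34 were among the 23143 gene symbols of the deposited table. The cells were A549, a human lung adenocarcinoma line, carrying a doxycycline-inducible GATA4, a DNA-binding factor that guides heart and endoderm development. The DOX group had 2 libraries, from cells given doxycycline and labelled as overexpressing GATA4. The noDOX group had 2 libraries, from cells with GATA4 at its normal level, for which the design text names a vehicle. Polyadenylated RNA was sequenced, and the values are FPKM, which divide the fragments of a gene by its length and by the size of the library. The sources used here do not give the dose and time of doxycycline, the construct or whether the line was 1 clone. No doxycycline-treated cells without inducible GATA4 were analysed here, so an effect of the drug and one of GATA4 cannot be told apart. The labels do not say that replicates came from separate cultures, so p-values reflect the spread of these 4 libraries alone, and that spread may be technical.

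Type I interferons bind the receptor IFNAR1-IFNAR2, whose kinases JAK1 and TYK2 phosphorylate STAT proteins, among them STAT2. With IRF9, STAT2 is part of a complex that binds the interferon-stimulated response element (ISRE) in promoters and switches on genes against viruses. Many of these genes also keep a low level in unstimulated epithelial cells, and several, such as STAT2, IRF9, IRF7 and the RNA sensors, are themselves parts of the pathway.

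GATA4 itself was at 74.98 and 47.95 FPKM in DOX libraries 1 and 2, against 12.2 and 14.5 FPKM in noDOX libraries 1 and 2. The induced gene itself missed the threshold of the test used below, with a log2 difference of 2.09 (SE 0.30; limma, adjusted p = 0.289). All 6 epithelial markers were above 3 FPKM in every library, 4 overlapping between the groups. KRT7 and EPCAM were lower in DOX libraries without overlap. KRT7 was at 197 and 1360 FPKM in DOX libraries 1 and 2, against 1944 and 1476 FPKM in noDOX libraries 1 and 2 (limma, adjusted p = 0.981). Its DOX libraries were thus far apart from each other. EPCAM was at 3.83 and 3.08 FPKM in DOX libraries 1 and 2, against 8.27 and 13.7 FPKM in noDOX libraries 1 and 2 (limma, adjusted p = 0.494). The fibroblast markers summed to 2.08 and 3.06 FPKM in DOX libraries 1 and 2, against 4.18 and 9.68 FPKM in noDOX libraries 1 and 2. Of them only COL1A1 reached a mean of 1 FPKM, and it was lower in DOX libraries without overlap (limma, adjusted p = 0.814). The endothelial markers summed to 0.116 to 0.192 FPKM in DOX and 0.117 to 0.119 FPKM in noDOX libraries, and the 12 blood cell markers to 14.1 to 36.0 FPKM in DOX and 32.5 to 33.1 FPKM in noDOX libraries. Of these 12, CD3E and CD3D were listed at 0 in all 4 libraries, and CD68, CD14 and LYZ, the 3 that reached a mean of 1 FPKM, gave most of the sum. CD68 was lower in DOX libraries without overlap, and CD14 and LYZ overlapped. The part of these markers in the results below was not tested. In genes with 1 annotated transcript, low FPKM lay at steps that give the worth of 1 fragment. From these the depth was estimated at 38.5 M and 25.2 M fragments in DOX libraries 1 and 2, and at 34.9 M and 39.6 M in noDOX libraries 1 and 2. By this estimate DOX library 2 was the shallowest. The estimate assumes FPKM that were divided by the size of each library itself, and any scaling across libraries is not given.

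Mean differences of the interferon-stimulated genes between DOX and noDOX libraries lay in both directions, and none of the genes passed the test. The test ran on log2(FPKM + 1) for every gene averaging 1 FPKM or more over the 4 libraries, which 18 of the 34 did. By limma, with Benjamini-Hochberg adjustment over all 12504 tested genes at 0.05, 0 of the 18 were called in either direction, where 0.0880% of all tested genes were called (0.0240% higher and 0.0640% lower). At an unadjusted p under 0.05 there were 2 of 18, IFI6 and OAS1, where 6.34% of all tested genes reached that level. Of the 18, 12 had higher and 6 lower mean log2 values in DOX than in noDOX libraries, where 43.9% of all tested genes were higher. Their median difference was 0.19 on the log2 scale, beside -0.04 over all tested genes. With no filter the 34 split into 17 higher and 17 lower, where 40.5% of 19429 genes were higher. OASL passed the filter only through the DOX libraries, so its place among the 18 depends on its difference. In bulk RNA, fewer cells expressing a gene and less RNA per cell cannot be told apart.

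Values of both DOX libraries lay outside those of both noDOX libraries for 7 of the 18 tested genes, 5 higher and 2 lower. That is 38.9%, where 32.0% of all tested genes were without overlap (14.7% higher and 17.3% lower). Over all 34, with those under the filter included, there were 13, 6 higher and 7 lower, or 38.2%, where 31.9% of genes above 0 in a library were without overlap (12.6% higher and 19.4% lower). Both shares were near their background. With 2 libraries a group, an exact permutation test of a single value cannot go below p = 0.33.

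**Figure D1:**
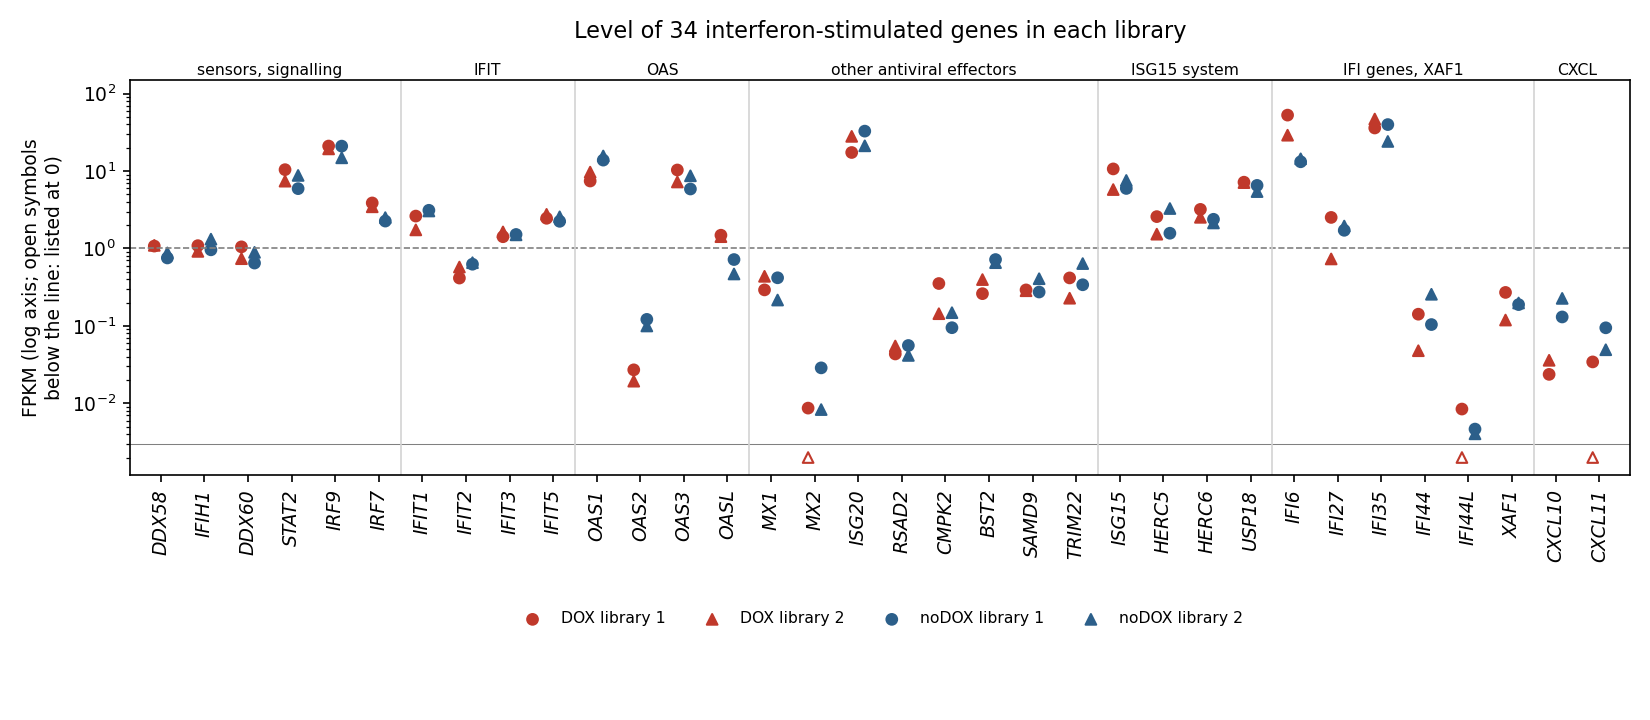
FPKM on a log axis for the 34 genes, grouped by role, with DOX libraries in red left of noDOX libraries in blue; circles are library 1, triangles library 2, open symbols below the grey line are listed at 0, and the dashed line is 1 FPKM. The genes span IFI6 at 52.7 FPKM in DOX library 1 to 3 genes listed at 0 in DOX library 2, and the colours do not overlap for 13 genes, 6 with red above blue and 7 with red below.

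The levels covered a wide range. Of the 34 genes, 5 had a mean of 10 FPKM or more, 13 a mean from 1 to 10, 11 a mean from 0.1 to 1 and 5 a mean under 0.1. The highest means were those of IFI35, IFI6, ISG20, IRF9 and OAS1. The lowest were those of CXCL11, RSAD2, OAS2, MX2 and IFI44L, genes that are known for strong induction by interferon. The median of the 34 was 1.25 and 1.01 FPKM in DOX libraries 1 and 2, and 0.858 and 1.10 FPKM in noDOX libraries 1 and 2, so the groups overlapped. Genes of at least 1 FPKM numbered 20 and 17 of the 34 in DOX libraries 1 and 2, and 16 and 17 in noDOX libraries 1 and 2.

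IFI6, a small mitochondrial and endoplasmic reticulum protein that restrains cell death and flavivirus replication, had the smallest p of the set. It was at 52.7 and 28.99 FPKM in DOX libraries 1 and 2, against 13.2 and 14.4 FPKM in noDOX libraries 1 and 2. Neither DOX library reached down to the noDOX range, and the DOX libraries were far apart from each other. The means were 40.8 ± 16.8 FPKM in DOX and 13.8 ± 0.9 FPKM in noDOX libraries (SD, n = 2 each), a ratio of 2.97. The difference of log2(FPKM + 1) was 1.44 (SE 0.34, 95% interval 0.54 to 2.35), and it missed the threshold (limma, adjusted p = 0.552). Without DOX library 1 the log2 difference was 1.02, and without DOX library 2 it was 1.86 (limma, adjusted p = 0.9999 and 0.237).

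OAS1, an enzyme that makes 2′-5′-linked oligoadenylates on double-stranded RNA and so activates RNase L, had the next smallest p, in the other direction. It was at 7.43 and 9.67 FPKM in DOX libraries 1 and 2, against 13.8 and 15.6 FPKM in noDOX libraries 1 and 2. Every DOX value was below every noDOX value, by more than the gap between replicates of either group. The means were 8.55 ± 1.58 and 14.7 ± 1.3 FPKM in DOX and noDOX libraries (SD, n = 2 each), a ratio of 0.580. The log2 difference of -0.73 (SE 0.21, 95% interval -1.29 to -0.17) missed the threshold (limma, adjusted p = 0.640).

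Promoters of 4 of the genes are given as RefSeq sequence on GRCh38.p14, a later build than the hg19 of the deposited values. IFI6 and OAS1 had the smallest p in each direction, and ISG15, with overlapping libraries, is given for comparison. The chemokines CXCL10 and CXCL11 were both lower in the DOX libraries, and CXCL10 is given because its noDOX values were above those of CXCL11. Each runs 5′ to 3′ over the 250 bases before the start of the gene. Capitals mark the ISRE core, searched as GAAA, any 2 bases and GAAA again on both strands, and the GATA site AGATAA, searched likewise. Only these letters were searched, so other spacings of GAAA and other forms of the GATA site are not marked or counted. Matches to the ISRE core that share bases run together in capitals.
IFI6, chr1:27672193-27672442, minus strand: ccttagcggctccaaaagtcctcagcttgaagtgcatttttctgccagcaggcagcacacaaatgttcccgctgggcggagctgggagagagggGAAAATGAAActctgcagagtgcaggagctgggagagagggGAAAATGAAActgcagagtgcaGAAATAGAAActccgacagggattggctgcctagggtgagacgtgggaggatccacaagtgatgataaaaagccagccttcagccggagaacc
OAS1, chr12:112906712-112906961, plus strand: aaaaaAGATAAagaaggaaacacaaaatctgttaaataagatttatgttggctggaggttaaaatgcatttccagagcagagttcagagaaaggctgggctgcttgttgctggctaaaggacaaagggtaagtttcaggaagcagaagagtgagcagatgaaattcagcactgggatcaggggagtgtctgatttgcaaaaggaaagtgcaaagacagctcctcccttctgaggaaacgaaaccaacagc
CXCL10, chr4:76023498-76023747, minus strand: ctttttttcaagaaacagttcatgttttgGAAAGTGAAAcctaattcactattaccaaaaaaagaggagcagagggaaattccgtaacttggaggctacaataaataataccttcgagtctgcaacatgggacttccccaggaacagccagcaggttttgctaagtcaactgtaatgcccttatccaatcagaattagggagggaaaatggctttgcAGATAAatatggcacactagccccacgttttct
ISG15, chr1:1013247-1013496, plus strand: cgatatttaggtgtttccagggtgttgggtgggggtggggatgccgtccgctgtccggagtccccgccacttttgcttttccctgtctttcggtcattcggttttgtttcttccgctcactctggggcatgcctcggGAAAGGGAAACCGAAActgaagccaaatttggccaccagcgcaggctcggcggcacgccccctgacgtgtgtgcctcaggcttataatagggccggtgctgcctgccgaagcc

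The IFI6 promoter held 3 matches to the ISRE core, the first beginning at position -156 from the start, and the ISG15 promoter held 2 that overlap. IFI6 also held TGATAA, and CXCL10 held TTATCC, which reads GGATAA on the other strand. Each differs from the GATA site searched in its first base only and is not marked. CXCL10 held 1 ISRE core and, at position -33, 1 GATA site. OAS1 held no ISRE core with the spacing of 2 bases that was searched. Near its end the printed OAS1 stretch does hold GAAACGAAA, with 1 base between the copies of GAAA, which the search passes over. OAS1 held 2 matches to the GATA site, at position -245 and at position 24 after the start, the latter beyond the printed stretch. Promoters of 27 of the 34 genes were matched in the RefSeq table, DDX58 under its newer symbol RIGI. Over 300-base windows, from 250 bases before to 50 after the start, 18 of the 27 (66.7%) held an ISRE core at a listed start, beside 4.38% of 27305 genes. The letters AGATAA were held by 6 of the 27 (22.2%), namely CMPK2, CXCL10, IFIT1, IFIT5, MX1 and OAS1, beside 12.4% of all genes. Genes with the ISRE core were found among those with higher DOX values (IFI6), lower DOX values (IFIT1, BST2, CXCL10) and overlapping libraries (ISG15, OAS3, IFIT3). Without overlap but with no match to the core were HERC6 and DDX58, higher, and OAS1 and CXCL11, lower. IRF7, OASL and USP18 (higher), IFIT2 and OAS2 (lower) and MX2 and TRIM22 (overlapping) had no promoter matched and were not searched. A match is a description of these letters only.

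**Figure D2:**
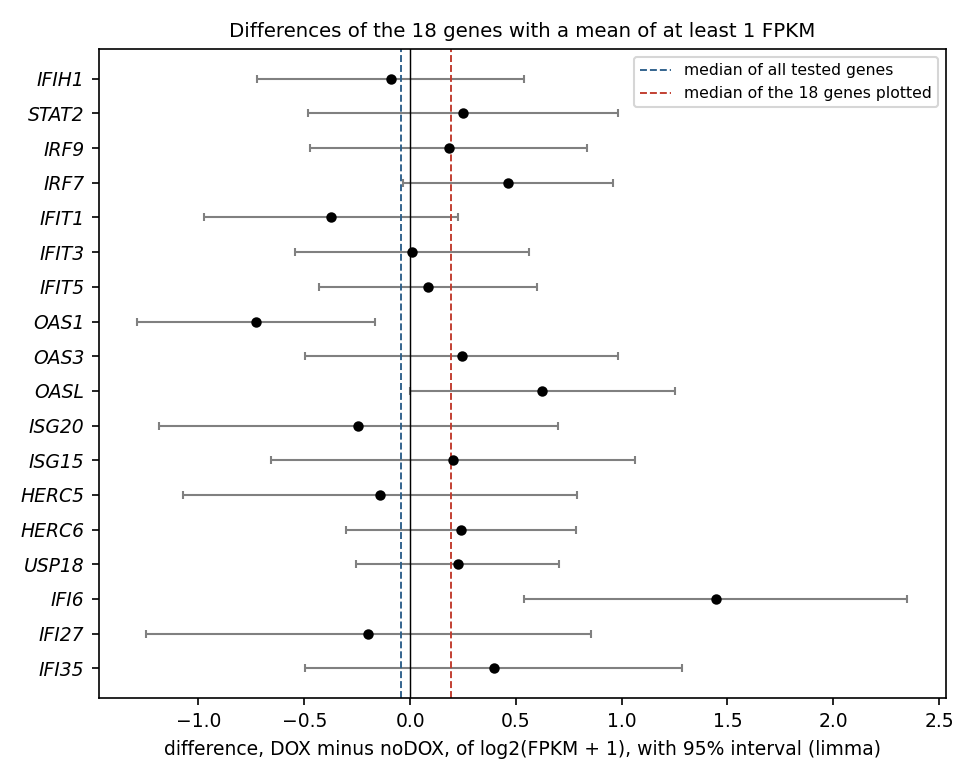
Difference of log2(FPKM + 1), DOX minus noDOX, with its 95% interval from limma, for the 18 genes averaging 1 FPKM or more, in order of role; dashed lines mark the median of all tested genes (blue, -0.04) and of the 18 (red, 0.19). IFI6 stands at 1.44 and OAS1 at -0.73, and the intervals of 16 of the genes include 0.

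Sensors and transcription factors of the pathway had 3 higher and 1 lower mean log2 values among the 4 tested. IRF7, the factor that amplifies interferon production, was at 3.87 and 3.45 FPKM in DOX libraries 1 and 2, against 2.26 and 2.50 FPKM in noDOX libraries 1 and 2. The groups did not overlap, and the log2 difference of 0.46 (SE 0.19) missed the threshold (limma, adjusted p = 0.832). STAT2, a subunit of the complex that binds the ISRE, was at 10.4 and 7.40 FPKM in DOX libraries 1 and 2, against 5.92 and 8.77 FPKM in noDOX libraries 1 and 2. IRF9, the DNA-binding subunit of the same complex, was at 21.0 and 19.3 FPKM in DOX libraries 1 and 2, against 21.0 and 14.8 FPKM in noDOX libraries 1 and 2. The groups overlapped for both, with log2 differences of 0.25 (SE 0.28) and 0.18 (SE 0.25). For STAT2, leaving out noDOX library 1 gave 0.0033 and leaving out noDOX library 2 gave 0.50. The full 1838-base IRF9 transcript is shared with an annotated read-through gene on the same strand, so its value is uncertain to that extent. Of the RNA helicases that sense viral RNA, DDX58 (RIG-I) was at 1.07 and 1.10 FPKM in DOX libraries 1 and 2, against 0.754 and 0.876 FPKM in noDOX libraries 1 and 2, without overlap and just under the filter. IFIH1 (MDA5) and DDX60 overlapped, over 0.917 to 1.09 and 0.738 to 1.05 FPKM in DOX, against 0.961 to 1.32 and 0.648 to 0.891 FPKM in noDOX libraries.

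Mean differences of the OAS family, whose members bind double-stranded RNA, lay in different directions. OASL, a member without the synthetase activity that promotes RIG-I signalling, was at 1.48 and 1.42 FPKM in DOX libraries 1 and 2, against 0.719 and 0.468 FPKM in noDOX libraries 1 and 2. Both DOX values were above both noDOX values, a ratio of means of 2.44. The log2 difference of 0.63 (SE 0.24) missed the threshold (limma, adjusted p = 0.787). OASL averaged 1.45 FPKM in DOX and 0.594 FPKM in noDOX libraries and so was tested only because of its DOX values. OAS3, the synthetase that is the main activator of RNase L, was at 10.3 and 7.21 FPKM in DOX libraries 1 and 2, against 5.86 and 8.67 FPKM in noDOX libraries 1 and 2, with overlap. OAS2 was at 0.0271 and 0.0194 FPKM in DOX libraries 1 and 2, against 0.122 and 0.0998 FPKM in noDOX libraries 1 and 2. About 5 and 2 fragments in the DOX libraries and 20 and 19 in the noDOX libraries stood behind these values, which did not overlap. OAS1, OAS3 and OAS2 are neighbours on chromosome 12, so next to each other stood a gene with lower values (OAS1), a gene with overlapping libraries (OAS3) and a gene near the limit of detection (OAS2).

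The IFIT genes, whose proteins bind viral RNA ends and form complexes with each other, lie on chromosome 10, with IFIT2 beside IFIT3 and IFIT1 beside IFIT5, and none passed the test. IFIT1, which recognises RNA without the cap methylation of the host, was at 2.62 and 1.74 FPKM in DOX libraries 1 and 2, against 3.11 and 3.05 FPKM in noDOX libraries 1 and 2. The groups did not overlap, and the log2 difference of -0.37 (SE 0.23) missed the threshold (limma, adjusted p = 0.986). It was -0.58 without DOX library 1 and -0.17 without DOX library 2. IFIT2 was also without overlap and lower, at 0.415 and 0.575 FPKM in DOX libraries 1 and 2, against 0.626 and 0.655 FPKM in noDOX libraries 1 and 2, and was under the filter. IFIT3, which stabilises IFIT1, had a log2 difference of 0.01 with a 95% interval of -0.54 to 0.56. IFIT5 had a log2 difference of 0.08 with a 95% interval of -0.43 to 0.60. These intervals leave room for differences of up to about 0.6 on the log2 scale.

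The ISG15 system attaches the ubiquitin-like ISG15 to other proteins and takes it off again. ISG15 was at 10.6 and 5.76 FPKM in DOX libraries 1 and 2, against 5.95 and 7.55 FPKM in noDOX libraries 1 and 2, with overlap. USP18, which removes ISG15 and blocks IFNAR2, was at 7.17 and 7.08 FPKM in DOX libraries 1 and 2, against 6.52 and 5.42 FPKM in noDOX libraries 1 and 2. HERC6 was at 3.20 and 2.52 FPKM in DOX libraries 1 and 2, against 2.38 and 2.13 FPKM in noDOX libraries 1 and 2. These last genes did not overlap, with log2 differences of 0.23 (SE 0.18) and 0.24 (SE 0.20) that missed the threshold (limma, adjusted p = 0.999 for both). A near-identical copy of USP18, USP41, can share its reads. HERC5, the main ligase for ISG15 in human cells, is the neighbour of HERC6 on chromosome 4 and was at 2.58 and 1.53 FPKM in DOX libraries 1 and 2, against 1.57 and 3.28 FPKM in noDOX libraries 1 and 2, with overlap.

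Of the remaining IFI genes, IFI35, a partner of NMI, was at 35.9 and 46.9 FPKM in DOX libraries 1 and 2, against 39.8 and 24.1 FPKM in noDOX libraries 1 and 2. The groups overlapped, and the log2 difference was 0.40 (SE 0.34; limma, adjusted p = 0.999). Leaving out noDOX library 1 gave 0.75 and leaving out noDOX library 2 gave 0.044. IFI27, a mitochondrial protein, was at 2.52 and 0.732 FPKM in DOX libraries 1 and 2, against 1.72 and 1.95 FPKM in noDOX libraries 1 and 2. The DOX libraries of IFI27 lay on either side of the noDOX libraries. XAF1, an antagonist of the apoptosis inhibitor XIAP, and the microtubule-associated IFI44 also overlapped, at 0.271 or less in every library. IFI44L was at 0.00845 FPKM in DOX library 1 and listed at 0 in DOX library 2, against 0.00466 and 0.00404 FPKM in noDOX libraries 1 and 2. That is about 2, 0, 1 and 1 fragments, and 3 fragments would be 0.0203 FPKM in DOX library 2.

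Of the other antiviral effectors only ISG20, an RNA exonuclease, reached the filter. It was at 17.3 and 28.0 FPKM in DOX libraries 1 and 2, against 32.7 and 21.1 FPKM in noDOX libraries 1 and 2, with overlap and a log2 difference of -0.24 (SE 0.36). BST2 (tetherin), which holds budding viruses on the cell surface, was at 0.261 and 0.397 FPKM in DOX libraries 1 and 2, against 0.719 and 0.655 FPKM in noDOX libraries 1 and 2. The BST2 groups did not overlap, and about 10 fragments in each DOX library and 26 in each noDOX library stood behind the values. MX1, a dynamin-like GTPase against influenza viruses, was at 0.292 and 0.437 FPKM in DOX libraries 1 and 2, against 0.418 and 0.216 FPKM in noDOX libraries 1 and 2. SAMD9 and TRIM22 lay between 0.228 and 0.638 FPKM in every library, and both overlapped. CMPK2 and RSAD2 are neighbours on chromosome 2 that work together, viperin (RSAD2) using the nucleotide that CMPK2 supplies. CMPK2 was at 0.353 and 0.144 FPKM in DOX libraries 1 and 2, against 0.0949 and 0.148 FPKM in noDOX libraries 1 and 2. RSAD2 was at 0.0435 and 0.0550 FPKM in DOX libraries 1 and 2, against 0.0559 and 0.0416 FPKM in noDOX libraries 1 and 2, about 5 to 7 fragments in each library. MX2 was at 0.00869 FPKM in DOX library 1 and listed at 0 in DOX library 2, against 0.0287 and 0.00832 FPKM in noDOX libraries 1 and 2, where 3 fragments would be 0.0392 FPKM in DOX library 2.

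The chemokines CXCL10 and CXCL11, which draw T cells through the receptor CXCR3, were near the limit of detection and lower in the DOX libraries. CXCL10 was at 0.0237 and 0.0360 FPKM in DOX libraries 1 and 2, against 0.131 and 0.227 FPKM in noDOX libraries 1 and 2. That is about 1 fragment in each DOX library, against 5 and 11 in noDOX libraries 1 and 2. CXCL11 was at 0.0343 FPKM in DOX library 1 and listed at 0 in DOX library 2, against 0.0946 and 0.0493 FPKM in noDOX libraries 1 and 2, or about 2, 0, 5 and 3 fragments. Neither chemokine overlapped between the groups. With the filter removed CXCL10 had a log2 difference of -0.19 (SE 0.05) and CXCL11 one of -0.08 (SE 0.04), and neither passed (limma, adjusted p = 0.638 and 0.832).

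The 16 genes under the filter held 6 without overlap, 1 higher (DDX58) and 5 lower (IFIT2, OAS2, BST2, CXCL10 and CXCL11). That is 37.5%, where 31.9% of all 6925 such genes above 0 in a library were without overlap, 8.72% higher and 23.2% lower. The noDOX libraries of OAS2, CXCL10 and CXCL11 themselves held about 3 to 20 fragments each. With every gene above 0 in a library tested, 0 of the 34 were called, where 0.00515% of all genes were. An unadjusted p under 0.05 was reached by 6 of the 34, or 17.6%, where 6.75% of all genes reached it (limma). These were IFI6 and OASL, higher, and OAS1, OAS2, BST2 and CXCL10, lower. For OAS2 and CXCL10 only about 1 to 5 fragments stood behind each DOX value.

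Ligands of the pathway were listed at or near 0. Of 21 interferon genes in the table, 17 were listed at 0 in all 4 libraries, among them IFNB1, the first interferon made by infected epithelial cells, and IFNG. IFNE, an interferon of mucosal epithelium that is singled out here because of its level, was at 0.925 and 0.430 FPKM in DOX libraries 1 and 2, against 0.354 and 0.379 FPKM in noDOX libraries 1 and 2. The other 3 were above 0 in 1 library each, at 0.0587 FPKM or less.

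The receptors of type I interferon and their kinases were above 7 FPKM in all 4 libraries. IFNAR1 was at 7.75 and 7.47 FPKM in DOX libraries 1 and 2, against 7.38 and 7.06 FPKM in noDOX libraries 1 and 2, with a 95% interval of the log2 difference of -0.37 to 0.51. IFNAR2 was at 26.02 and 21.6 FPKM in DOX libraries 1 and 2, against 18.5 and 22.2 FPKM in noDOX libraries 1 and 2. The kinase TYK2 stayed between 13.8 and 14.3 FPKM in all 4 libraries, and JAK1 was at 34.1 and 31.2 FPKM in DOX libraries 1 and 2, against 24.5 and 33.9 FPKM in noDOX libraries 1 and 2. SOCS3, an inhibitor of cytokine signalling, was at 8.73 and 13.8 FPKM in DOX libraries 1 and 2, against 20.4 and 35.2 FPKM in noDOX libraries 1 and 2. PTPN2, a phosphatase of JAK and STAT proteins, was at 9.59 and 14.6 FPKM in DOX libraries 1 and 2, against 25.1 and 18.9 FPKM in noDOX libraries 1 and 2. Neither SOCS3 nor PTPN2 passed (limma, adjusted p = 0.671 and 0.751), and 0 of the 14 tested receptor and JAK-STAT genes did, with a median of 0.01.

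Genes that sense nucleic acids and pass the signal on split evenly, 7 higher and 7 lower of 14 tested, with a median of 0.06 and 0 called. The interferon regulatory factors among them had values in opposite directions. IRF1 was at 5.30 and 7.19 FPKM in DOX libraries 1 and 2, against 11.3 and 11.1 FPKM in noDOX libraries 1 and 2. IRF2, which competes with IRF1 for the same sites, was at 23.7 and 19.6 FPKM in DOX libraries 1 and 2, against 13.1 and 13.0 FPKM in noDOX libraries 1 and 2. IRF5 was at 14.5 and 9.77 FPKM in DOX libraries 1 and 2, against 4.76 and 7.66 FPKM in noDOX libraries 1 and 2. The groups of these factors did not overlap, and the log2 differences of -0.76, 0.68 and 0.87 missed the threshold (limma, adjusted p = 0.609, 0.654 and 0.752). IRF3, the factor that starts the interferon response, was at 62.1 and 81.9 FPKM in DOX libraries 1 and 2, against 91.0 and 79.4 FPKM in noDOX libraries 1 and 2, with overlap.

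A further 26 tested response genes, outside the 34, had a median of -0.02, with 12 higher and 14 lower and 0 called. IFITM1, which blocks virus entry at membranes, was at 0.888 and 0.497 FPKM in DOX libraries 1 and 2, against 4.18 and 4.07 FPKM in noDOX libraries 1 and 2. IFITM2 was at 57.7 and 126 FPKM in DOX libraries 1 and 2, against 239 and 186 FPKM in noDOX libraries 1 and 2. IFITM3, added once its values had been seen, was at 15.97 and 47.2 FPKM in DOX libraries 1 and 2, against 92.5 and 57.2 FPKM in noDOX libraries 1 and 2. None of these close copies, which can share reads, overlapped between groups, and none passed, with log2 differences of -1.61, -1.30 and -1.37 (limma, adjusted p = 0.289, 0.768 and 0.863). DTX3L, a ubiquitin ligase, was at 3.71 and 3.15 FPKM in DOX libraries 1 and 2, against 1.78 and 2.23 FPKM in noDOX libraries 1 and 2, and missed too (limma, adjusted p = 0.770).

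Of 16 genes that respond mainly to interferon gamma only 6 were tested, with 1 higher and 5 lower, a median of -0.45 and 0 called. GBP2, a guanylate-binding protein, was at 0.451 and 1.28 FPKM in DOX libraries 1 and 2, against 3.46 and 3.58 FPKM in noDOX libraries 1 and 2, without overlap (log2 difference -1.31, SE 0.29; limma, adjusted p = 0.520). PSMB9, an immunoproteasome subunit, was at 18.7 and 37.7 FPKM in DOX libraries 1 and 2, against 53.4 and 37.7 FPKM in noDOX libraries 1 and 2. TAP1, a peptide transporter, was at 10.97 and 9.63 FPKM in DOX libraries 1 and 2, against 10.2 and 16.7 FPKM in noDOX libraries 1 and 2. The groups overlapped for both.

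The spread between replicates was as large as most differences. The difference between groups was larger than the gap between replicates in both groups for 4 of the 18 tested genes (22.2%), where it was for 22.6% of all tested genes. The 4 were IFI6, OAS1, IRF7 and OASL, the last of which was tested only because of its DOX values. STAT2 and OAS3 had their highest values in DOX library 1 and noDOX library 2 and their lowest in noDOX library 1. HERC5 and TRIM22 were highest in noDOX library 2 and DOX library 1. ISG20 and IFI35 had the reverse, with higher values in DOX library 2 and noDOX library 1. The part of library composition in these gaps was not tested.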

How the data were processed

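The labels' protocols give column-purified RNA that was treated with DNase I and selected on oligo(dT) beads. Alignment and quantification used TopHat2 2.0.10, Bowtie, Cufflinks 2.2.1 and Cuffdiff against hg19, per the submitters' processing notes. The authors deposited FPKM, 1 column per library. The sources used here do not give the annotation, the strand setting or any scaling across libraries.

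FPKM were tested as log2(FPKM + 1), and the pseudocount of 1 understates changes at low levels. The limma 3.58.1 fit in R 4.3.3 took the 12504 genes averaging 1 FPKM or more, with 2 group means, a mean-variance trend, two-sided p, Benjamini-Hochberg adjustment, a threshold of 0.05 and 2 residual degrees of freedom. Ratios of means are on FPKM without a pseudocount. The fit was tested on simulated data, and that test does not show that its assumptions hold in these 4 libraries.

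The members and lists were chosen with earlier results of these data known. Values in every library are given for the 12 tested members with the smallest p, for the 3 such genes of each pathway list, and for IRF1, IRF3, IFNB1, IFNAR1, IFNAR2, TYK2 and JAK1. An item that this rule also names is not reported here. Other members are given by value or range.

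FPKM were turned into estimated fragments with GENCODE release 29 transcript lengths and the FPKM of 1 fragment in single-transcript genes over 1500 bases. Of their values of about 1 to 4 fragments, 78.7 to 81.9% lay within 0.2 of a whole number. These are estimates, and floors of 3 fragments cover counting error only. By the same release, OAS1, ISG15, MX1 and XAF1 share exon bases with a gene on the other strand, and IFIT2 and IRF9 on the same strand, so their values are uncertain to that extent. Alternatives covered the pseudocount, filter, scaling, small RNA genes, moderation, a replicate block and each library left out. A crossed pairing was added after the data were seen.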

Additional observations from a re-analysis of the deposited data

How the results depend on the processing

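No interferon-stimulated gene that was tested was called in any of the 12 alternatives, of which 1 tested all 34, 1 tested 29 and the others 17 to 19. The median difference of the tested genes, 0.19 over 18, was 0.00025 over 34 with no filter and 0.053 over 29 with a filter of 0.1 FPKM, and ran from 0.053 to 0.23 with 1 library left out. The lowest value, at 0.053, was without noDOX library 1, and it was 0.072 without DOX library 1. Genes without overlap numbered 13 of 34 with no filter and 11 of 29 with a filter of 0.1 FPKM, against 7 of 18. With 1 library left out, which makes overlap rarer for any gene, they numbered 11 to 13 of 17 to 19 (63.2 to 76.5%), where 51.9 to 79.2% of all genes were without overlap, and the lone library of a group is then assumed to vary like the other group. Of 213 values of the 18 tested genes under alternatives, 204 kept their direction and 0 passed the threshold. The 9 reversals came with 1 library left out. With 1 library left out, ISG20 ran from -0.58 to 0.086 and reversed without noDOX library 1 (0.059) and without DOX library 1 (0.086). OAS3 ran from -0.0041 to 0.49 and reversed without noDOX library 1, and IRF9 ran from -0.055 to 0.42 and reversed without noDOX library 2. HERC5 reversed without noDOX library 2 (0.23) and without DOX library 2 (0.11), IFI27 (0.31) and IFIT3 (-0.052) without DOX library 2, and ISG15 (-0.19) without DOX library 1. OASL was under the filter with either DOX library left out. The replicate block left the median at 0.19 and called 0 of the 18, with 65 of all genes called against 11. Replicates with the same number deviated in opposite directions (r = -0.35 across 12504 genes, -0.76 across 12112 without small RNA genes and -0.59 across the 18, and genes are not independent), so the numbers are taken not to pair the libraries. A crossed pairing, of DOX library 1 with noDOX library 2 and DOX library 2 with noDOX library 1, called 0 of the 18 and 7 of all genes. Under it an unadjusted p under 0.05 was reached by 4 of the 18 and 2617 of all genes, against 2 and 793 in the main fit (limma). The SE of STAT2 was 0.09, against 0.28. This pairing was taken from these same data, so its smaller p-values carry no weight. Depth limits the genes under about 20 fragments a library, among them CXCL10, CXCL11, OAS2, MX2, RSAD2 and IFI44L.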

Other observations

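Gaps between replicates followed transcript length across the tested genes, in opposite directions in the 2 groups. Over 11102 genes with a length, Spearman's rho between length and the log2 gap of DOX library 1 minus DOX library 2 was 0.45, and that with noDOX library 1 minus noDOX library 2 was -0.46. Over the 18 tested interferon-stimulated genes these were -0.15 and -0.36. Genes are not independent, and no p is given.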
